A study of Neurospora crassa with 6 samples.

Results

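The genes described here encode the enzymes and proteins that build, remodel and degrade the glucan, mannan and chitin of the cell wall of the filamentous fungus Neurospora crassa. They are the 146 of 9691 genes whose annotated product names a glucan, a chitinase or chitin deacetylase, a mannosyltransferase, mannosidase or mannan, the cell wall, a GPI anchor, an endoglucanase or a glucosidase, with chitin synthases, kinases and transcription factors left out. The rule reads product text alone, but it was set with earlier results of these data known. The product text also takes in enzymes that act on plant walls or on storage glucan, and the genes were therefore sorted by product into 13 roles.

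Messenger RNA was sequenced from wild-type cultures grown from conidia, the asexual spores, for 6 h and then for 1 h more with the drug or its solvent. The 6 groups of 1 library each were staurosporine at 20 µM in standard minimal medium, staurosporine at 20 µM in 0 Ca2+ medium, staurosporine at 20 µM in medium with 20 mM CaCl2, and DMSO, the solvent control, in each of those 3 media. Staurosporine is a broad inhibitor of protein kinases that induces cell death in this fungus, and the libraries allow its effect to be set beside the supply of calcium. Every group is 1 wild-type culture at 1 time, so no spread between cultures of the same group can be given, and neither the calcium content of the standard medium nor any calcium left in the 0 Ca2+ medium is stated in the labels.

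The wall of a filamentous fungus has an inner layer of beta-1,3-glucan and chitin, made at the growing tip by synthases in the plasma membrane, and an outer layer of mannosylated proteins. Glucan chains are elongated, branched and cross-linked outside the cell by transferases that are often held by a GPI lipid anchor, and hydrolases loosen the same polymers where hyphae extend, branch or lyse. The mannoproteins receive their sugars in the endoplasmic reticulum and Golgi, where mannosyltransferases add mannose and glucosidases and mannosidases trim the N-glycans.

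Levels are FPKM, the authors' fragments scaled to transcript length and library size, and changes are log2 ratios of FPKM + 1, staurosporine over DMSO unless stated otherwise. A ratio of at least 1 in size, which is 2 times, is counted as higher or lower where the 2 libraries compared average 1 FPKM or more, and such a count has no test. FPKM summed over all genes was 500315 with staurosporine and 940590 with DMSO in standard medium, 696047 and 953522 in 0 Ca2+ medium, and 666121 and 1001098 in 20 mM CaCl2 medium. Scaling every library to the same sum moved the median ratio of all genes up by 0.87, 0.43 and 0.55 in those media, and centring moved it by 0.03, 0.23 and 0.23. No cell wall gene counted as higher or lower in any of the 7 comparisons of libraries had a ratio of the other sign under either scaling. FPKM is a share of the library, and in these whole cultures fewer cells that transcribe a gene and less RNA per cell cannot be told apart.

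Of the 146 genes, 118 had a mean of at least 1 FPKM over the 6 libraries, 71 at least 10 and 18 at least 100, and 28 lay below 1. Their FPKM summed to 10687 with staurosporine and 9321.51 with DMSO in standard medium, 7282.67 and 8273.18 in 0 Ca2+ medium, and 9378.55 and 9325.67 in 20 mM CaCl2 medium. The cell wall genes thus made up 2.14% of the summed FPKM with staurosporine and 0.991% with DMSO in standard medium. Their share was 1.05% with staurosporine and 0.868% with DMSO in 0 Ca2+ medium, and 1.41% and 0.932% in 20 mM CaCl2 medium.

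In standard medium 27 of the 112 cell wall genes past the filter were higher with staurosporine and 6 were lower, where 13.4% of all 7167 genes were higher and 14.9% lower. Their median ratio was 0.32, beside 0.11 for all genes. In 0 Ca2+ medium 24 of 122 were higher and 18 lower, against 18.7% and 20.9% of all genes, with medians of -0.01 for the cell wall genes and -0.09 for all genes. In 20 mM CaCl2 medium 6 of 108 were higher and 2 lower, against 2.62% and 6.16% of all genes, with medians of 0.07 and -0.14. With equal FPKM sums 73 of 119 were higher and 3 lower in standard medium, beside 46.8% and 4.91% of all genes. In 0 Ca2+ medium 44 of 125 were then higher and 9 lower, beside 28.7% and 13.5% of all genes. In 20 mM CaCl2 medium 25 of 117 were higher and 0 lower, beside 12.8% and 1.69%. Centring gave 32 and 11 in 0 Ca2+ medium, beside 23.4% and 16.3% of all genes. It gave 11 and 1 in 20 mM CaCl2 medium, beside 5.46% and 3.19%. The authors' deposited table calls 26 cell wall genes higher and 7 lower in standard medium, 23 and 17 in 0 Ca2+ medium, and 4 and 4 in 20 mM CaCl2 medium. These are out of 112, 123 and 113 that the authors list as testable. Over all testable genes the calls are 920 and 1001 of 7202, 1186 and 1563 of 7662, and 145 and 309 of 7393.

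**Figure D1:**
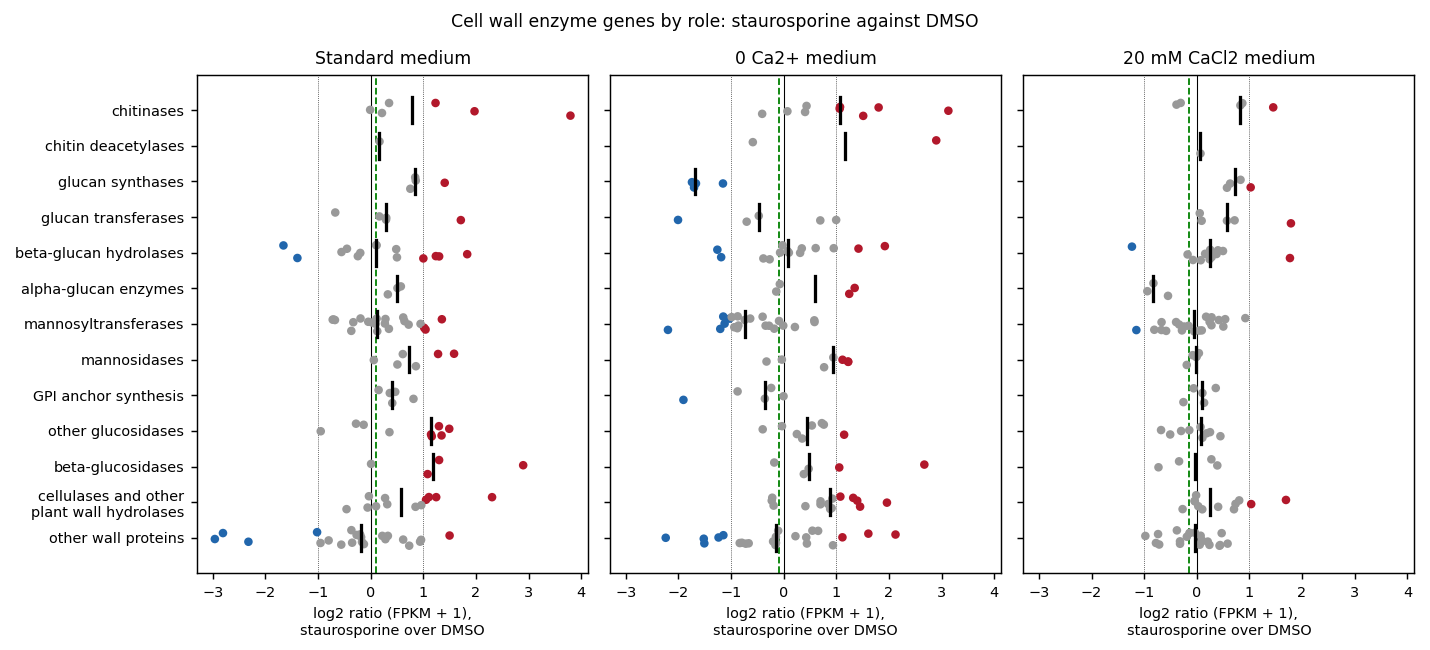
Log2 ratio (FPKM + 1), staurosporine over DMSO, of each cell wall gene past the filter, by role (rows) and medium (panels). Red points were at least 2 times higher, blue points at least 2 times lower, black bars are the medians of the roles, and the dashed green line is the median of all genes (0.11, -0.09 and -0.14). The 4 glucan synthase genes lie right of 0 in standard and 20 mM CaCl2 medium and left of -1 in 0 Ca2+ medium.

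Several chitinase transcripts were higher with staurosporine, led by gh18-5, the only cell wall gene that was at least 2 times higher in all 3 media as deposited. Its product is an endochitinase, which cuts inside the chitin chain. Its level was 223 FPKM with staurosporine and 15.1 with DMSO in standard medium, 49.3 and 16.7 in 0 Ca2+ medium, and 43.04 and 15.1 in 20 mM CaCl2 medium. The log2 ratios were 3.8, 1.51 and 1.45, and the 3 staurosporine libraries all lay above the 3 DMSO libraries, which stayed within a narrow range. Over the media the mean ratio was 2.25 (SE 0.53), and in limma's moderated test across 7415 genes the unadjusted p was 0.00441 and the Benjamini-Hochberg adjusted p 0.292. The authors' deposited calls mark gh18-5 as significant in none of their comparisons.

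The exochitinase gene NCU10852, whose product releases sugar from the chain end, was at 16.02 FPKM with staurosporine and 3.34 with DMSO in standard medium, 62.7 and 6.29 in 0 Ca2+ medium, and 12.04 and 6.16 in 20 mM CaCl2 medium. All staurosporine values again exceeded the DMSO values, with log2 ratios of 1.97, 3.13 and 0.86, but here 0 Ca2+ medium gave the highest level and 20 mM CaCl2 medium a ratio under the size rule. For gh18-7, another chitinase gene, only the staurosporine library of 0 Ca2+ medium stood apart, at 62.5 FPKM beside 17.2 with DMSO, while the levels were 18.6 and 15.9 in standard medium and 10.1 and 13.6 in 20 mM CaCl2 medium. Summed over the 11 chitinase genes, FPKM was 278 with staurosporine and 53.0 with DMSO in standard medium, 193 and 58.7 in 0 Ca2+ medium, and 82.9 and 53.7 in 20 mM CaCl2 medium. The chitinases counted as higher were 3 of 6 past the filter in standard medium, 5 of 9 in 0 Ca2+ medium and 1 of 5 in 20 mM CaCl2 medium, and none was lower in any of the 3. Of all genes 13.4%, 18.7% and 2.62% were higher in those media. Among the 5 in 0 Ca2+ medium, gh18-2 and NCU12033 passed the filter only through the staurosporine library. In standard medium gh18-3 was such a gene among the 3.

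A low-level chitinase, gh18-3, was at 2.401 FPKM with staurosporine and 0.448 with DMSO in standard medium, a ratio of 1.23. The class III chitinase gene NCU01393 had ratios of -0.01, -0.41 and -0.31, all under the size rule, and 0.86, 0.01 and 0.24 with equal FPKM sums, so its direction depended on the scaling. Of the chitin deacetylase genes, whose enzymes turn chitin into chitosan, NCU09508 reached 11.5 FPKM with staurosporine in 0 Ca2+ medium and lay between 0.328 and 0.681 in the other 5 libraries. The log2 ratio in that medium was 2.9. The second, NCU09582, was at 0.7505 FPKM with staurosporine and 1.63 with DMSO there and within 1.39 to 1.83 FPKM elsewhere.

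**Figure D2:**
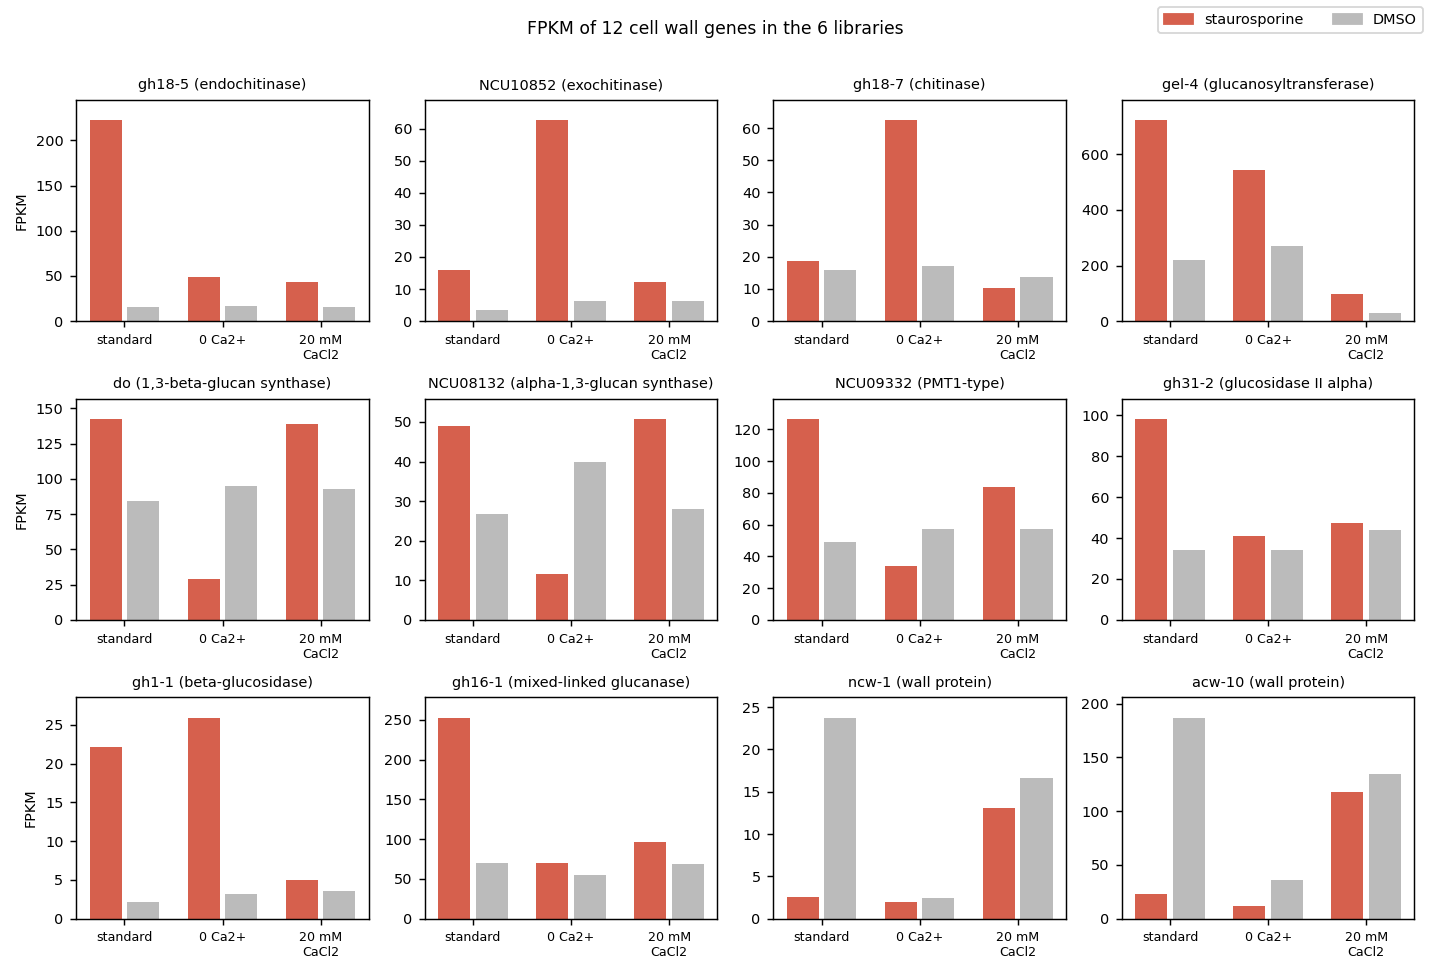
FPKM (linear axes from 0) of 12 cell wall genes in the 6 libraries, red for staurosporine and grey for DMSO, 1 bar per library and so without error bars. The chitinase gh18-5 is higher with staurosporine in each medium, the glucan synthase genes do and NCU08132 are lower with staurosporine in 0 Ca2+ medium only among the 3, and acw-10 is lowest in the staurosporine libraries of standard and 0 Ca2+ medium.

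The glucan synthase genes shared a direction within each medium. In 0 Ca2+ medium all 4 were at least 2 times lower with staurosporine, at a median of -1.69, while in standard and 20 mM CaCl2 medium all 4 had ratios above 0, at medians of 0.85 and 0.73. Of all genes 20.9% were at least 2 times lower in 0 Ca2+ medium. Ratios above 0 were found in 3926 of 7167 genes in standard and 2856 of 7204 in 20 mM CaCl2 medium. The gene do encodes GLS1, the catalytic subunit that makes beta-1,3-glucan. It was at 143 FPKM with staurosporine and 84.2 with DMSO in standard medium, 29.1 and 94.6 in 0 Ca2+ medium, and 139 and 92.96 in 20 mM CaCl2 medium. Its DMSO levels lay between 84.2 and 94.6 FPKM, so the low value was that of the staurosporine library of 0 Ca2+ medium.

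The alpha-1,3-glucan synthase gene NCU08132 was at 49.1 FPKM with staurosporine and 26.9 with DMSO in standard medium, 11.6 and 39.97 in 0 Ca2+ medium, and 50.8 and 28.1 in 20 mM CaCl2 medium. It followed do closely, with ratios of 0.85, -1.7 and 0.83. The regulatory gene of glucan synthesis in this group, cot-2, was at 40.9 FPKM with staurosporine and 22.1 with DMSO in standard medium, 7.73 and 28.2 in 0 Ca2+ medium, and 36.4 and 23.1 in 20 mM CaCl2 medium. Its ratios were 0.86, -1.74 and 0.63, next to 0.75, -1.67 and 0.57 for do.

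The second alpha-1,3-glucan synthase gene, NCU02478, was the 1 cell wall gene of 118 that passed the size rule in opposite directions in different media, as did 2.98% of all genes tested. It was at 23.3 FPKM with staurosporine and 8.16 with DMSO in standard medium, 1.68 and 4.97 in 0 Ca2+ medium, and 16.4 and 7.55 in 20 mM CaCl2 medium. The ratios were 1.41 and 1.02 in standard and 20 mM CaCl2 medium and -1.15 in 0 Ca2+ medium, and the last was -0.93 with centred ratios and -0.86 with equal sums. Under centring or equal sums do, NCU08132 and cot-2 remained at least 2 times lower in 0 Ca2+ medium, and the medians of the 4 genes were -1.46 and -1.26. The sums over the 4 genes were 255.8 FPKM with staurosporine and 141 with DMSO in standard medium, 50.1 and 168 in 0 Ca2+ medium, and 242 and 152 in 20 mM CaCl2 medium. The difference between media was not tested, as each rests on 1 pair of libraries, and over the 3 media together none of the 4 passed limma's moderated test (lowest adjusted p = 0.770).

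A ratio above 0 in standard and 20 mM CaCl2 medium and below 0 in 0 Ca2+ medium was found in 24 of the 118 cell wall genes (20.3%) and in 1026 of 7415 genes (13.8%), and with equal FPKM sums in 29 (24.6%) and in 22.6% of all genes. Besides the 4 synthases the 24 were 8 of 21 mannosyltransferases, 3 of 5 genes of GPI anchor synthesis, 2 of 5 glucan transferases and 7 genes of other roles. Outside this gene set, the chitin synthase genes chs-1, chs-4 and chs-5 and the N-glycan transfer gene ti had the same signs as deposited.

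**Figure D3:**
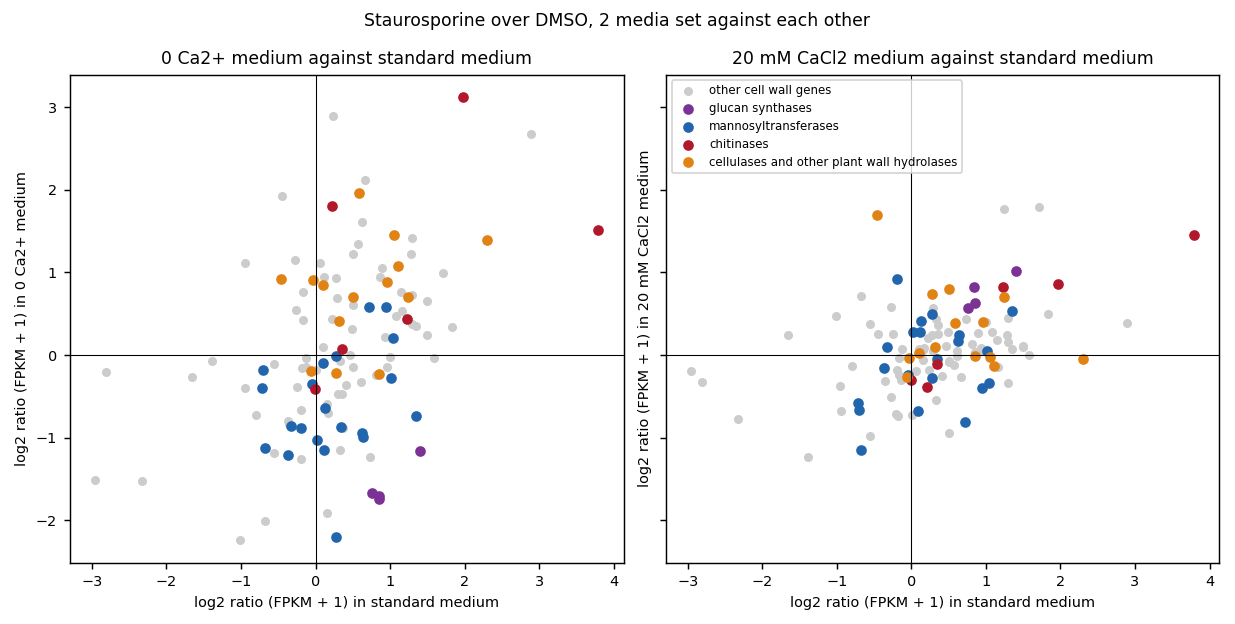
Log2 ratio (FPKM + 1) of staurosporine over DMSO in 0 Ca2+ medium (left) and 20 mM CaCl2 medium (right) plotted against that in standard medium, 1 point for each of the 118 cell wall genes that average 1 FPKM or more over the 6 libraries. The 4 glucan synthases (purple) lie below 0 in the left panel and above 0 in the right one, and the chitinase gh18-5 is the point farthest right in both.

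Genes of the glucan transferases, which join and lengthen beta-1,3-glucan chains in the wall, were among the most abundant, with 4 of 5 at a mean of over 100 FPKM. The one that stood apart was gel-4. Its level was 723 FPKM with staurosporine and 220.0 with DMSO in standard medium, 543 and 272 in 0 Ca2+ medium, and 98.3 and 27.8 in 20 mM CaCl2 medium. The ratios were 1.71, 0.995 and 1.79, the second just under the size rule. The authors' deposited calls mark gel-4 as higher with staurosporine in all 3 media. Both 20 mM CaCl2 libraries lay below all others, and both 0 Ca2+ libraries lay between the 2 libraries of standard medium. Over the media gel-4 had the lowest unadjusted p of the cell wall genes in limma's moderated test (0.00413), with a mean ratio of 1.5 (SE 0.35) and an adjusted p of 0.292. For gel-5 the level was 1.5 FPKM with staurosporine and 9.06 with DMSO in 0 Ca2+ medium, a ratio of -2.01, and its ratios were -0.67 and 0.72 in standard and 20 mM CaCl2 medium. The more abundant genes NCU06781 (Gel2, mean 427 FPKM), NCU05974 (Mwg1, 422) and gel-3 (292) had ratios between -0.7 and 0.69 in every medium.

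The beta-glucan hydrolases did not move one way. Of 14 past the filter in standard medium 4 were higher and 2 lower, of 14 in 0 Ca2+ medium 2 and 2, and of 13 in 20 mM CaCl2 medium 1 and 1. With equal FPKM sums, in that order of media, 7 of 15, 4 of 14 and 2 of 15 were higher and none lower. Of all genes 46.8%, 28.7% and 12.8% were then higher and 4.91%, 13.5% and 1.69% lower. As deposited, 13.4% of all genes were higher and 14.9% lower in standard medium, 18.7% and 20.9% in 0 Ca2+ medium, and 2.62% and 6.16% in 20 mM CaCl2 medium. The mixed-linked glucanase gene gh16-1 was at 253 FPKM with staurosporine and 70.2 with DMSO in standard medium, 69.8 and 54.8 in 0 Ca2+ medium, and 96.8 and 68.3 in 20 mM CaCl2 medium, and the staurosporine library of standard medium alone stood apart. The 1,3-beta-glucanase gene NCU07523 was at 13.4 FPKM with staurosporine and 44.3 with DMSO in standard medium, a ratio of -1.66, while both libraries of 0 Ca2+ medium were low, at 7.499 and 9.23 FPKM. An exo-beta-1,3-glucanase gene, NCU04850, was at 16.9 FPKM with staurosporine in 0 Ca2+ medium and 3.73 with DMSO, a ratio of 1.92.

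Smaller glucanase transcripts also differed. neg-1, whose enzyme cuts beta-1,6-glucan, had ratios of 1.3 and 1.42 in standard and 0 Ca2+ medium and 0.16 in 20 mM CaCl2 medium, at levels between 0.9002 and 4.62 FPKM. In 0 Ca2+ medium neg-1 passed the filter only through the staurosporine library. The endo-1,3-beta-glucosidase gene NCU05105 was at 4.23 FPKM with staurosporine and 1.22 with DMSO in standard medium, 0.796 and 0.108 in 0 Ca2+ medium, and 7.68 and 1.55 in 20 mM CaCl2 medium, higher with staurosporine in every medium. The exoglucanase gene NCU09791 was the other way round in standard and 20 mM CaCl2 medium, at ratios of -1.39 and -1.23, beside -0.07 in 0 Ca2+ medium. The most abundant gene of this role, the GPI-anchored endoglucanase gene NCU09175, lay between 217 and 424 FPKM in all 6 libraries and had no ratio past the size rule.

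Of the 5 alpha-glucan enzymes, the branching enzyme gene NCU05429, which acts in glycogen synthesis, was at 214 FPKM with staurosporine and 149.9 with DMSO in standard medium, 97.1 and 107 in 0 Ca2+ medium, and 89.9 and 173 in 20 mM CaCl2 medium. Its ratio was positive in standard medium (0.51) and negative in 20 mM CaCl2 medium (-0.94), both under the size rule. The maltohexaosidase gene gh13-3 reached 3.78 FPKM with staurosporine in 0 Ca2+ medium, beside 0.878 with DMSO. The alpha-1,3-glucanase gene NCU08473 stayed between 0.785 and 2.05 FPKM.

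Mannosyltransferase transcripts mostly had ratios below 0 in 0 Ca2+ medium and were mixed in the other media. In 0 Ca2+ medium 18 of the 21 genes had a ratio below 0, as did 4015 of all 7531 genes, at medians of -0.74 for these genes and -0.09 for all. At least 2 times lower were 5 of the 21, a share near the 20.9% of all genes, and none was higher. The all-gene median there depended on level, at -0.32 from a mean of 10 FPKM upwards, with 27.0% lower, and 0.38 under 10 FPKM. In standard medium 3 of the 21 were higher and none lower, at a median of 0.13, beside 13.4% and 14.9% of all genes. In 20 mM CaCl2 medium none was higher and 1 lower, at -0.05, beside 2.62% and 6.16%. The median of the 21 in 0 Ca2+ medium was -0.51 with centred ratios and -0.30 with equal FPKM sums. Under both 1 of the 21 was lower by 2 times, beside 16.3% and 13.5% of all genes. Equal sums also gave 2 of the 21 higher in 0 Ca2+ medium and 12 in standard medium, where 28.7% and 46.8% of all genes were. They gave a median of 0.53 in 20 mM CaCl2 medium, where the sign of the median turned. The summed FPKM of the 21 genes was 1142 with staurosporine and 983 with DMSO in standard medium, 654 and 922 in 0 Ca2+ medium, and 1002 and 1070 in 20 mM CaCl2 medium.

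The PMT1-type gene NCU09332, whose family in yeast starts O-linked mannosylation in the endoplasmic reticulum, was at 127 FPKM with staurosporine and 49.01 with DMSO in standard medium, 33.9 and 57.3 in 0 Ca2+ medium, and 83.8 and 57.4 in 20 mM CaCl2 medium. It was highest with staurosporine in standard medium and lowest with staurosporine in 0 Ca2+ medium, at ratios of 1.35 and -0.74. The alpha-1,6-mannosyltransferase subunit gene NCU03055 was at 5.17 FPKM with staurosporine and 27.4 with DMSO in 0 Ca2+ medium, a ratio of -2.2, and its other 4 values lay between 23.9 and 46.02 FPKM. The genes annotated as MNN9 and ANP1 subunits of the mannan polymerase complexes, NCU02635, NCU08939 and NCU08024, had ratios of -0.64, -0.88 and -0.99 in that medium.

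The gene NCU07338 is of the Och1 type. Och1 in yeast starts the outer mannan chain of N-glycans. Its level was 26.9 FPKM with staurosporine and 43.6 with DMSO in standard medium, 7.43 and 17.4 in 0 Ca2+ medium, and 36.9 and 82.99 in 20 mM CaCl2 medium, lower with staurosporine in every medium, and the mean ratio was -0.98 (SE 0.34; unadjusted p = 0.0232 and adjusted p = 0.302 in limma's test). With equal FPKM sums its ratio in standard medium turned to 0.21, and the mean was -0.36 (limma unadjusted p = 0.447, adjusted p = 0.615). The second Och1-type gene, NCU08232, was at 1.31 FPKM with staurosporine and 2.77 with DMSO in standard medium, 0.879 and 1.13 in 0 Ca2+ medium, and 4.08 and 7.08 in 20 mM CaCl2 medium. In contrast dpm, which encodes the synthase of the mannose donor dolichol phosphate mannose, stayed within 111 to 138 FPKM, with ratios of 0.28, -0.01 and -0.28.

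Genes of GPI anchor synthesis followed the mannosyltransferases in 0 Ca2+ medium, where all 5 had ratios below 0 as deposited, 4 with centred ratios and 2 with equal sums, and 1 was at least 2 times lower. That gene was NCU11399 (GPI mannosyltransferase 4), at 3.26 FPKM with staurosporine and 14.95 with DMSO, and between 12.1 and 13.7 FPKM in the other media. In standard medium all 5 had ratios above 0, up to 0.81 for NCU00193 (GPI mannosyltransferase 3). Of all genes 3926 of 7167 had ratios above 0 there. In 0 Ca2+ medium 4015 of all 7531 genes had ratios below 0, and 20.9% were at least 2 times lower. The mannosidases, which trim mannose from N-glycans or degrade mannan, had 2 of 6 genes higher in standard medium, 3 of 7 in 0 Ca2+ medium and 0 of 5 in 20 mM CaCl2 medium, with none lower. Of all genes 13.4%, 18.7% and 2.62% were higher in those media. Of the 3 mannosidases in 0 Ca2+ medium, gh2-1 passed the filter only through the staurosporine library. The class I alpha-mannosidase gene gh47-2 was higher in standard and 0 Ca2+ medium, at 4.84 FPKM with staurosporine and 1.41 with DMSO in standard medium, 7.65 and 2.71 in 0 Ca2+ medium, and 0.731 and 0.4602 in 20 mM CaCl2 medium. For NCU04798, an alpha-1,2-mannosidase gene, 1 library stood apart, at 9.85 FPKM with staurosporine in standard medium, beside 2.62 with DMSO, and the other 4 were between 2.01 and 2.998.

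The glucosidases that trim glucose from new N-glycans in the endoplasmic reticulum were higher together in standard medium. The gene gh31-2, which encodes the alpha subunit of glucosidase II, was at 98.3 FPKM with staurosporine and 34.3 with DMSO in standard medium, 40.8 and 34.2 in 0 Ca2+ medium, and 47.1 and 43.7 in 20 mM CaCl2 medium. Its beta subunit gene NCU05606 was at 80.2 FPKM with staurosporine and 35.3 with DMSO in standard medium, and gh63-1, annotated as the mannosyl-oligosaccharide glucosidase, at 32.9 and 12.3. The ratios of gh31-2, NCU05606 and gh63-1 were 1.49, 1.16 and 1.35 in standard medium, 0.25, 0.53 and 0.35 in 0 Ca2+ medium, and 0.1, -0.14 and 0.07 in 20 mM CaCl2 medium. The remaining glucosidases higher in standard medium were gh31-3 (1.3) and gla-2 (1.15). That makes 5 of the 9 past the filter, with none lower, where 13.4% of all genes were higher and 14.9% lower. The abundant secreted glucosidase gene NCU05789 was at 290.1 FPKM with staurosporine and 561 with DMSO in standard medium, 153 and 202 in 0 Ca2+ medium, and 280.5 and 449.8 in 20 mM CaCl2 medium, lower with staurosporine in each medium by less than 2 times, though the ratio in 0 Ca2+ medium was 0.05 with equal FPKM sums.

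Genes of beta-glucosidases, which release glucose from short beta-glucans and cellobiose, had gh1-1 at their head. It was at 22.2 FPKM with staurosporine and 2.11 with DMSO in standard medium, 25.9 and 3.23 in 0 Ca2+ medium, and 5.04 and 3.61 in 20 mM CaCl2 medium. The ratios were 2.9 and 2.67 in standard and 0 Ca2+ medium and 0.39 in 20 mM CaCl2 medium, with a mean of 1.99 (SE 0.55; unadjusted p = 0.00974 and adjusted p = 0.292 in limma's test). Also higher in standard medium were gh3-2 (17.4 FPKM with staurosporine and 6.48 with DMSO) and gh3-1 (3.75 and 1.24), while gh3-5 was at 3.92 and 3.898.

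The cellulases and other plant wall hydrolases hold 9 genes of the gh61 family, whose products are now known as lytic polysaccharide monooxygenases, and 4 of the gh7 cellulase family. Many were weakly transcribed: of 23 genes, 14 had a mean of at least 1 FPKM over the 6 libraries. Higher with staurosporine were 4 of 12 past the filter in standard medium, 5 of 15 in 0 Ca2+ medium and 2 of 12 in 20 mM CaCl2 medium, and none was lower. Of all genes 13.4%, 18.7% and 2.62% were higher in those media. Some of the higher genes passed the filter only through the staurosporine library. They were cbh-1 in standard medium, cbh-1, gh61-6 and NCU08412 in 0 Ca2+ medium, and gh6-1 in 20 mM CaCl2 medium. NCU07898, annotated as endoglucanase IV, was at 12.9 FPKM with staurosporine and 1.82 with DMSO in standard medium, 17.5 and 6.04 in 0 Ca2+ medium, and 1.77 and 1.86 in 20 mM CaCl2 medium, high in both 0 Ca2+ libraries as well as in the staurosporine library of standard medium. The cellobiohydrolase gene cbh-1 was at 2.13 FPKM with staurosporine and 0.452 with DMSO in standard medium, and 2.94 and 0.8697 in 0 Ca2+ medium. In 20 mM CaCl2 medium gh61-2 reached 13.96 FPKM with staurosporine, beside 3.63 with DMSO. The abundant endoglucanase gene NCU05404, at a mean of 487 FPKM, had ratios of 0.1, 0.84 and 0.03.

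Low-level genes weigh on these counts. In 0 Ca2+ medium 20 of the 24 higher cell wall genes had a mean under 10 FPKM over the 6 libraries, and 13 of the 24 had under 1 FPKM with DMSO, so these 13 passed the filter only through the staurosporine library. Under 10 FPKM, 20 of 51 cell wall genes past the filter were higher and 2 lower, where 29.5% and 10.8% of all genes at this level were. From 10 FPKM upwards 4 of 71 were higher and 16 lower, where 12.1% and 27.0% of all genes were. Markers of conidia were higher with staurosporine in standard and 0 Ca2+ medium as well. FPKM summed over con-6, con-8, con-10, con-13, eas, ccg-1 and fl was 275 with staurosporine and 169 with DMSO in standard medium, 564 and 249.9 in 0 Ca2+ medium, and 190.5 and 226 in 20 mM CaCl2 medium. In that order of media 4, 4 and 1 of the 6 markers past the filter were at least 2 times higher and none was lower. Of all genes 13.4%, 18.7% and 2.62% were higher. In 20 mM CaCl2 medium 4 of the 6 had ratios below 0, at a median of -0.30. Most of each sum was ccg-1, at 217 FPKM with staurosporine in standard medium and 465 in 0 Ca2+ medium. Its ratios of 0.57, 0.95 and -0.19 were all under the size rule. The marker con-13 was listed at 0 in 3 libraries. The part of such markers in the levels of the hydrolases was not tested.

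Among the remaining wall proteins, some are named for their place in the wall, anchored (acw) or not (ncw). In standard medium 4 of 22 were lower with staurosporine and 1 higher, where 14.9% and 13.4% of all genes were. Of 23 in 0 Ca2+ medium 5 were lower and 3 higher, where 20.9% and 18.7% of all genes were, and in 20 mM CaCl2 medium none of 21 passed the size rule. Of the 3 higher in 0 Ca2+ medium, ncw-5 and NCU05063 passed the filter only through the staurosporine library. The gene acw-10 was at 23.2 FPKM with staurosporine and 187 with DMSO in standard medium, 11.9 and 35.6 in 0 Ca2+ medium, and 118 and 135 in 20 mM CaCl2 medium. The DMSO value of 0 Ca2+ medium was itself low, so both libraries of that medium and the staurosporine library of standard medium lay below the other 3. Ratios were -2.96, -1.51 and -0.19, with a mean of -1.55 (SE 0.54; unadjusted p = 0.02603 and adjusted p = 0.313 in limma's test).

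A similar order was seen for ncw-1, at 2.54 FPKM with staurosporine and 23.8 with DMSO in standard medium, 1.99 and 2.44 in 0 Ca2+ medium, and 13.1 and 16.6 in 20 mM CaCl2 medium. With ratios of -2.81, -0.2 and -0.32 only standard medium separated its pair. acw-12 was at 3.597 FPKM with staurosporine and 21.99 with DMSO in standard medium, 3.198 and 11.03 in 0 Ca2+ medium, and 32.4 and 56.2 in 20 mM CaCl2 medium, lower with staurosporine in every medium, and had a mean ratio of -1.54 (SE 0.41; unadjusted p = 0.00791 and adjusted p = 0.292 in limma's test). For acw-6 the ratios were -1.02, -2.24 and 0.47.

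The abundant wall protein genes varied less. acw-3, the most abundant of the 146, was at 678 FPKM with staurosporine and 1179 with DMSO in standard medium, 711 and 1174 in 0 Ca2+ medium, and 821 and 899.6 in 20 mM CaCl2 medium, and ncw-2 stayed between 556 and 763 FPKM. The exception upwards was ncw-4, at 959.8 FPKM with staurosporine and 339 with DMSO in standard medium, a ratio of 1.5. acw-2 and acw-11 resembled the glucan synthases, with ratios of 0.73 and 0.33 in standard medium, -1.24 and -1.15 in 0 Ca2+ medium, and 0.43 and 0.44 in 20 mM CaCl2 medium. The role's medians were -0.19 in standard and -0.15 in 0 Ca2+ medium, and the sign turned with equal sums (0.71 and 0.29) and, in 0 Ca2+ medium, with centred ratios (0.08).

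Taking the 3 media as repeats of the drug contrast, no cell wall gene passed limma's moderated test (0 of 118 at an adjusted p below 0.05 and a mean ratio of at least 1 in size), where 0.0809% of all genes passed as higher and 0.0809% as lower. The lowest adjusted p was 0.292. At an unadjusted p below 0.05, 7 were higher and 3 lower, against 4.02% and 10.1% of all genes. The 7 were gh18-5, gel-4, NCU10852, gh1-1, NCU05105, gh61-3 and NCU07898, and the 3 were acw-12, acw-10 and NCU07338. With equal FPKM sums these counts were 34 and 0 of 124, where 1257 of all 7644 genes were higher and 133 lower. Centred ratios gave 17 and 2 of 118, beside 539 and 394 of all 7415 genes. An unpaired fit without the media gave 6 and 1, beside 282 and 699 of all genes. Without the 20 mM CaCl2 pair 3 genes passed as higher, namely gh1-1 (limma adjusted p = 0.0177), NCU10852 (0.0213) and gh18-5 (0.0243), and 2 as lower, namely acw-10 (0.0257) and acw-12 (0.0452), in a fit on only 2 pairs that then called 174 of all genes higher and 362 lower.

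By direction alone, 31 of the 118 had ratios above 0 in all 3 media (13.6% of all genes) and 20 below 0 (23% of all genes). With centred ratios 46 were above 0 and 7 below (23.6% and 14.8% of all genes), and with equal FPKM sums 68 and 1 (42.6% and 5.03%), the 1 being acw-12. The size rule was met in every medium by 1 gene upwards, gh18-5, and by none downwards, against 0.472% and 1.12% of all genes. Upwards it was met by 3 genes with centred ratios and 7 with equal sums, against 0.877% and 2.25% of all genes. As deposited it was met in at least 1 medium by 60 of the 118 and by 3887 of all 7415 genes, a similar share. Across the 118 genes the ratios of standard medium had a Pearson r of 0.418 with the ratios in 0 Ca2+ medium and 0.426 with the ratios in 20 mM CaCl2 medium, and r was 0.0621 between 0 Ca2+ and 20 mM CaCl2 medium. Over all 7415 genes r was 0.543, 0.379 and -0.0679. No library is shared within these pairs of ratios, genes are not independent replicates, and the values are a description.

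Few cell wall genes differed by 2 times with calcium supply alone, and 7 of these 16 were wall proteins. Both comparisons use the standard DMSO library. In 0 Ca2+ medium 4 of 105 genes were higher and 8 lower than in standard medium, against 2.99% and 2.33% of all genes, with medians of -0.03 for the cell wall genes and 0.12 for all genes. The non-anchored wall protein gene ncw-3 was at 78.98 FPKM in 0 Ca2+, 7.01 in 20 mM CaCl2 and 9.28 in standard medium with staurosporine, and 58.5, 7.203 and 10.5 with DMSO. NCU00399 (PhiA) was at 65.6, 7.73 and 6.53 FPKM with staurosporine and 44.7, 4.82 and 8.06 with DMSO in the same order. Both genes were higher in the 2 libraries of 0 Ca2+ medium than in any other library. ncw-6 and NCU07898 were the other 2 higher genes, at ratios over standard medium of 1.46 and 1.32.

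Lower in 0 Ca2+ medium with DMSO were ncw-1 (-2.85), acw-10 (-2.36), gh76-5 (-2.16), NCU07523 (-2.15), NCU05789 (-1.47), NCU07338 (-1.28), gh61-2 (-1.19) and NCU07974 (-1.01), each as a log2 ratio over standard medium. The gh76-5 product belongs to the Dfg5 family, thought in yeast to attach GPI-anchored mannoproteins to wall glucan, and its FPKM was 10.8 in 0 Ca2+, 69.7 in 20 mM CaCl2 and 51.8 in standard medium. None of the 4 glucan synthase genes passed the size rule, at ratios between -0.62 and 0.56. The authors' deposited table calls 3 of 106 testable cell wall genes higher and 8 lower here, beside 143 and 138 of all 7131 testable genes.

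In 20 mM CaCl2 medium 3 of 104 genes were higher and 1 lower than in standard medium with DMSO, against 2.12% and 0.801% of all genes, with medians of 0.15 and 0.07. The lower gene was gel-4. With staurosporine it was at 98.3 FPKM in 20 mM CaCl2 and 723 in standard medium. With DMSO it was at 27.8 FPKM in 20 mM CaCl2 and 220.0 in standard medium, a ratio of -2.94, so both libraries with added calcium were low. The higher genes were acw-12 (1.31), NCU08232 (1.1) and NCU09791 (1.08). Here 3 of 113 testable cell wall genes are significant and higher and 1 is significant and lower in the authors' deposited table. Of all 7352 testable genes 92 and 37 are.

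**Figure D4:**
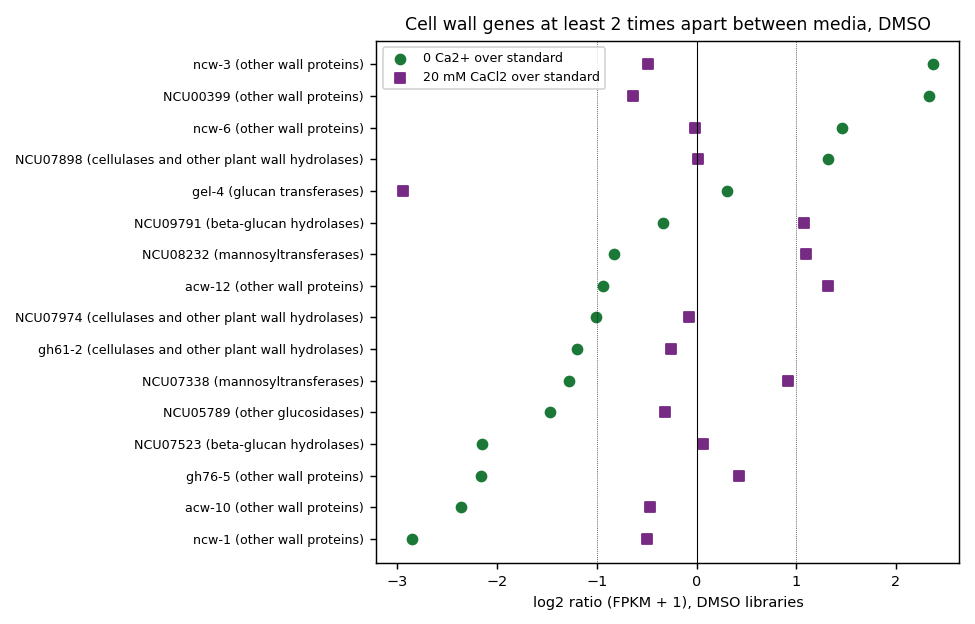
Log2 ratio (FPKM + 1) over standard medium in the DMSO libraries of 0 Ca2+ medium (green circles) and 20 mM CaCl2 medium (purple squares) for the 16 cell wall genes at least 2 times apart in either comparison, with dotted lines at 2 times. The wall protein genes ncw-3 and NCU00399 lie beyond 2 in 0 Ca2+ medium, and gel-4 lies at -2.94 in 20 mM CaCl2 medium.

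With staurosporine in both media, 13 of 124 cell wall genes were higher and 32 lower in 0 Ca2+ than in standard medium, against 18.6% and 17.9% of all genes, with medians of -0.48 and -0.02. These ratios share the staurosporine libraries with the drug comparisons above. All 4 glucan synthases were lower, at -3.18 for NCU02478, -2.26 for cot-2, -2.25 for do and -1.99 for NCU08132. In 20 mM CaCl2 medium 12 of 116 were higher and 16 lower than in standard medium, against 12.1% and 12.5% of all genes, with medians of -0.16 and -0.13. Equal FPKM sums gave 9 and 29, against 7.34% and 25.6% of all genes. As deposited, acw-12 was higher there by 2.86 and acw-10 by 2.3 on the log2 scale, and gel-4 and gh18-5 were lower, at -2.87 and -2.34.

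Genes that feed the wall enzymes but lie outside the 146 were followed as lists, and none passed limma's moderated test. Of 12 genes for precursor sugars 4 of 11 past the filter were higher with staurosporine in standard medium and 0 lower, 4 of 12 higher and 4 lower in 0 Ca2+ medium, and 0 of 10 either way in 20 mM CaCl2 medium. In that order of media equal FPKM sums gave 9 and 0, 5 and 1, and 2 and 0. Under that scaling 46.8%, 28.7% and 12.8% of all genes were higher and 4.91%, 13.5% and 1.69% lower. As deposited, 13.4% of all genes were higher and 14.9% lower in standard medium, 18.7% and 20.9% in 0 Ca2+ medium, and 2.62% and 6.16% in 20 mM CaCl2 medium. The mannose-1-phosphate guanyltransferase gene NCU06003, for the mannose donor GDP-mannose, was at 321 FPKM with staurosporine and 181 with DMSO in standard medium, 55.7 and 235 in 0 Ca2+ medium, and 222 and 217 in 20 mM CaCl2 medium. The Golgi transporter of that donor, NCU06198, was at 100.5 FPKM with staurosporine and 46.7 with DMSO in standard medium, 19.8 and 53.2 in 0 Ca2+ medium, and 96.8 and 48.6 in 20 mM CaCl2 medium, and so had the sign pattern of the glucan synthases. The UDP-N-acetylglucosamine pyrophosphorylase gene NCU02109, for the chitin precursor, was higher in standard and 0 Ca2+ medium (1.26 and 1.4) and at -0.45 in 20 mM CaCl2 medium.

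Of 11 genes of N-glycan transfer in the endoplasmic reticulum 3 were higher in standard medium, where 13.4% of all genes were, 2 were lower in 0 Ca2+ medium, where 20.9% were, and 0 passed either way in 20 mM CaCl2 medium. With equal FPKM sums 10 were higher in standard medium and 2 in 20 mM CaCl2 medium, where 46.8% and 12.8% of all genes were. Under either scaling 0 were lower in 0 Ca2+ medium, beside 13.5% of all genes with equal sums and 16.3% with centring. In standard medium 10 of the 11 had ratios above 0 as deposited, and in 20 mM CaCl2 medium 6 did. Of all genes 3926 of 7167 and 2856 of 7204 did. In 0 Ca2+ medium 8 of the 11 were below 0 as deposited and 5 with equal FPKM sums. As deposited, 4015 of all 7531 genes were below 0 there. The catalytic oligosaccharyltransferase subunit gene ti (STT3) was at 124 FPKM with staurosporine and 54.6 with DMSO in standard medium, 27.1 and 54.3 in 0 Ca2+ medium, and 78.8 and 64.8 in 20 mM CaCl2 medium. The 11 genes of chitin synthases and their regulators, left out of the 146 by the product rule, had 1 gene higher in standard medium, chs-1 at 103 FPKM with staurosporine and 49.5 with DMSO. With equal sums 8 of them were higher there. Of all genes 13.4% were higher there as deposited and 46.8% with equal sums. In 0 Ca2+ medium chs-6 was higher (1.24) and chs-4 lower (-1.31), beside 18.7% and 20.9% of all genes. As deposited, 8 of 11 of these genes had ratios above 0 in standard medium and 8 of 10 in 20 mM CaCl2 medium. Of all genes 3926 of 7167 and 2856 of 7204 had. In 0 Ca2+ medium 8 of 11 were below 0 as deposited, beside 4015 of all 7531 genes, and 6 of 11 with equal FPKM sums. Of the 6 genes of wall integrity signalling, the kinase cascade that in yeast answers wall damage, none passed the size rule with staurosporine in any medium as deposited. With equal sums 3 were higher in standard and 1 in 20 mM CaCl2 medium, beside 46.8% and 12.8% of all genes. All 6 had ratios below 0 in 0 Ca2+ medium as deposited, between -0.9 for wsc-1 and -0.06 for pkc, and 5 of 6 under either scaling. As deposited, 4015 of all 7531 genes had ratios below 0. Of the 6 genes, mek-1 was lower in 0 Ca2+ than in standard medium with DMSO, at 84.5 and 281 FPKM.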

How the data were processed

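Poly(A) RNA was sequenced as single reads of 50 bases, per the labels. The submitters' processing notes name TopHat2 2.0.4, Cufflinks 2.0.2 and Cuffdiff; the sources used here give no genome build. The authors deposited 5 tables of 9691 genes, each with the FPKM of 2 libraries and, per the file headers, p-values and q-values with a call of significance, which are quoted only as the authors' calls. FPKM columns were matched to groups by their names, and 0 genes differed between tables that share a library. Depth is unknown and no counting error is stated: no counts are given, and among genes under 0.2 FPKM at most 24 of 414 shared 1 ratio to the standard DMSO library, so low values fixed no relative depth.

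Genes were matched by product text, and all 146 IDs have a locus tag in the RefSeq table of assembly NC12, 76 with a symbol. The members and lists were chosen with earlier results of these data known. Ratios were taken as log2 of FPKM + 1, so changes of weakly transcribed genes are understated; the filter was an average of 1 FPKM and the size rule 1 on the log2 scale. The drug effect was tested over the 3 media as pairs with limma 3.58.1 in R 4.3.3, a two-sided moderated test with a mean trend on 7415 genes, adjusted by Benjamini-Hochberg. A check on simulated data had a pass mark for a narrow spread alone. It therefore does not show how much limma's test can find at the spread of these data. Each SE is limma's moderated one. Since each group is 1 culture, that p-value measures the spread between media and libraries together. Named genes are, per role, the 3 largest ratios over the staurosporine and DMSO calcium comparisons, the highest mean FPKM, and those past the size rule in all media or in opposite directions, 46 in all; further genes are named to fill small counts or describe a role and were chosen after their values were seen. Other settings tried were equal FPKM sums, centred ratios, pseudocounts of 5 and 0.1, a filter at 10 FPKM or none, the authors' testable genes, no minimum fold, each medium left out in turn and an unpaired fit. Python 3.11.15 with pandas 2.3.3, numpy 2.4.6 and matplotlib 3.10.9 was used.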

Additional observations from a re-analysis of the deposited data

Results flagged for a closer look

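The alpha-1,3-glucan synthase gene NCU02478 had log2 ratios of staurosporine over DMSO of 1.41 in standard medium, -1.15 in 0 Ca2+ medium and 1.02 in 20 mM CaCl2 medium. It was singled out because it was at least 2 times higher in some media and at least 2 times lower in another. Each medium has 1 library per treatment, so the difference was not tested. The ratio in 0 Ca2+ medium was -0.93 with centred ratios, -0.86 with equal FPKM sums and -0.58 with a pseudocount of 5, all below 0 and under the size rule. With that pseudocount the ratio in 20 mM CaCl2 medium was 0.77.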

How the results depend on the processing

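Over the media no cell wall gene passed limma's test under any alternative but 1: without the 20 mM CaCl2 pair 3 passed as higher and 2 as lower, and leaving out another pair gave 0 and 0. The fit without the pairing by medium (the replicate block) gave 0 and 0. No cell wall gene past the size rule changed sign under either scaling, but genes under it and medians of roles near 0 did. Below 0 in all 3 media were 20 cell wall genes as deposited, 7 with centred ratios and 1 with equal FPKM sums. Of all genes 23%, 14.8% and 5.03% were. With equal FPKM sums 73 cell wall genes were higher and 3 lower with staurosporine in standard medium, 44 and 9 in 0 Ca2+ medium, and 25 and 0 in 20 mM CaCl2 medium. Of all genes 46.8% and 4.91%, 28.7% and 13.5%, and 12.8% and 1.69% were. With staurosporine 59 cell wall genes were lower in 0 Ca2+ and 29 in 20 mM CaCl2 than in standard medium, beside 30.4% and 25.6% of all genes. Centred ratios gave 11 lower in 0 Ca2+ medium, and 11 higher and 1 lower in 20 mM CaCl2 medium, beside 16.3%, 5.46% and 3.19% of all genes. With a pseudocount of 5 the genes higher with staurosporine were 13 in standard, 7 in 0 Ca2+ and 3 in 20 mM CaCl2 medium, and 1 was lower in the last. Of all genes 6.93%, 10.5% and 1.28% were higher and 3.68% lower. With a minimum mean FPKM of 10 the cell wall genes were 15, 7 and 3, and 1, beside 12.2%, 14.9%, 2.32% and 7.53% of all genes. Between media with DMSO, 2 genes were higher in 0 Ca2+ medium under either of these settings, and 1 in 20 mM CaCl2 medium, against 5 with a pseudocount of 0.1. Of all genes 1.16% were higher in 0 Ca2+ medium with the pseudocount of 5 and 2.70% with the minimum of 10. In 20 mM CaCl2 medium 0.801% and 1.74% were, and 3.61% with the pseudocount of 0.1. Between media with staurosporine, 7 genes were higher in 0 Ca2+ medium with a pseudocount of 5, 6 with the minimum of 10 and 7 with the authors' testable genes, and in 20 mM CaCl2 medium 10 were lower with a pseudocount of 5 and 7 higher with the minimum of 10. Of all genes 10.6%, 16.8% and 15.5% were higher in 0 Ca2+ medium. In 20 mM CaCl2 medium 7.19% were lower and 14.5% higher under those settings. The cause of these shifts was not tested. Of the values of single named genes under the alternatives, 683 stayed on their side of the threshold, 32 no longer passed it and 5 newly did. The 683 include 102 without a filter, 72 with the minimum of 10 and 98 with the authors' testable genes. Those settings change which genes are kept and leave a gene's ratio as it was, so they do not test it. With 1 library a group, neither the spread between cultures nor counting error can be given, and low FPKM values have the least support.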

Other observations

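The 28 cell wall genes with a mean under 1 FPKM over the 6 libraries included 5 chitinases, 6 beta-glucan hydrolases and 9 cellulases and other plant wall hydrolases. The cellulase gene gh7-3 was listed at 0 in all 6 libraries, and 10 of the 146 genes were listed at 0 in at least 1. Several of these genes had their highest value with staurosporine in 0 Ca2+ medium. The monooxygenase gene gh61-11 was at 1.85 FPKM with staurosporine and 0.0896 with DMSO there, gh61-10 at 1.55 and 0.0383, and the mannanase gene NCU08412 at 2.39 and 0.3602. The chitinase gene gh18-2 was at 1.89 and 0.376 FPKM in the same pair. These genes were named after their values were seen, and the depth behind such levels is unknown.

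Of the 146 genes, 1 pair are neighbours on the chromosome in the RefSeq annotation, the endo-1,3-beta-glucosidase gene NCU05105 and the cellulase gene gh7-4. NCU05105 was at 7.68 FPKM with staurosporine and 1.55 with DMSO in 20 mM CaCl2 medium, and gh7-4 at 0 and 0.137.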
